A study of Mus musculus with 7 samples.

Results

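The regions described here were bound by Fos, by the authors' peak calls, in all 3 kainic acid libraries of mouse hippocampus and in no saline library. They were found by merging the peaks of 6 deposited lists wherever peaks overlapped by 1 bp or more, over chromosomes 1 to 19. Of 68249 merged regions, 11598 had a peak in every kainic acid list and none in a saline list, which is 17.0%. They are called core regions below. Another 14512 regions lay in exactly 2 kainic acid lists and 38907 in 1, in both cases without a saline peak. The calls themselves chose the core regions, so their number, width and enrichment are given as descriptions without a test.

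Fos is the product of an immediate early gene, made within minutes to hours of strong neuronal firing. It pairs with a Jun protein to form AP-1, a transcription factor that binds a short palindromic DNA motif in promoters and, more often, in enhancers far from them. In the hippocampus, Fos marks recently active granule and pyramidal neurons. Kainic acid, an agonist of glutamate receptors, drives such firing and provokes seizures.

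Chromatin immunoprecipitation with an antibody to Fos, followed by sequencing, was run on hippocampi of wild-type C57BL/6J mice aged 2 months. The saline group (3 libraries) received PBS. The kainic acid group (3 libraries) received 2 intraperitoneal injections of 10 mg/kg, 30 min apart, and was killed 1 h after the first. Only kainic acid mice that reached a set seizure level were used. A single input library, chromatin of a saline hippocampus without antibody, was not analysed here as a list of peaks. The number of animals behind each library is not in the labels, nor is it stated that libraries are separate animals, so the spread between lists may be technical. The hippocampus was lysed whole, so more cells with a bound site and more binding per cell cannot be told apart.

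The lists differ greatly in length. Kainic acid replicates 1, 2 and 3 hold 15009, 63197 and 29650 peaks, and the saline replicates 7, 3277 and 2. Saline replicate 2 stands apart from the other saline lists, and it alone removed nearly every region that the saline condition removed. Ignoring saline, 11853 autosomal regions were in all 3 kainic acid lists. Of the 255 left out, 253 had a peak of saline replicate 2. Lists of 7 and 2 peaks could have removed very few regions, so absence from saline here means that a region was not called there. Read totals do not come with the lists. The number of reads over each summit, called the pileup, and the local background were solved from the deposited fold and p-value of each peak. No kainic acid peak had fewer than 12, 9 and 13 reads over its summit in replicates 1, 2 and 3.

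Because AP-1 is known by its motif, promoter sequences under core regions are shown first. The sequences are RefSeq promoter windows of GRCm38.p6, each running from 250 bases before a gene's start to 50 bases after it. Core summits of all 3 lists fell into 81 of these windows, which hold 75 core regions. Below are the 250 bases before the start for the protein-coding genes whose regions ranked best by fold. They are written 5′ to 3′ on the strand of the gene, and capitals mark each match to TGANTCA, the AP-1 motif with any middle base.
Pacsin2: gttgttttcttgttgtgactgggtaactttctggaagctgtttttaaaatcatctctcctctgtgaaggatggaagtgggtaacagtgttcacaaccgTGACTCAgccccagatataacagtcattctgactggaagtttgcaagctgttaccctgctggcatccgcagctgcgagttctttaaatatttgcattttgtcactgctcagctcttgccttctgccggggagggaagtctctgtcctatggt
Csrnp1: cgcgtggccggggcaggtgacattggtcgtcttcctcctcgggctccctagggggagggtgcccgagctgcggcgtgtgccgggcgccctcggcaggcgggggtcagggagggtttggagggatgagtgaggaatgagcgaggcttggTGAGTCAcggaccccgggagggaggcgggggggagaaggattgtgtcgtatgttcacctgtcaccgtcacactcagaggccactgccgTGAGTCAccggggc
Rin1: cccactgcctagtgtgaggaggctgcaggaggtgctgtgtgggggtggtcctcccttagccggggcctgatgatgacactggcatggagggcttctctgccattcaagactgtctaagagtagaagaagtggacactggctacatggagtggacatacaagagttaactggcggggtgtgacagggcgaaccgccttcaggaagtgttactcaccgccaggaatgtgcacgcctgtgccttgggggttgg
Il15ra: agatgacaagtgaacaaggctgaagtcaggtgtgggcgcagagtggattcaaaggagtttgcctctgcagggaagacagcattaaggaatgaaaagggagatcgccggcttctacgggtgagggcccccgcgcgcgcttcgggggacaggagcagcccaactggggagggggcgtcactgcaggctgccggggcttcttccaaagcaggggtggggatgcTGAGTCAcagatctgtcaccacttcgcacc

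Pacsin2 encodes a protein that bends membranes during endocytosis. Its stretch is chr15:83447881-83448130 on the minus strand. The core region over it had a fold of 8.57, 17.4 and 8.96 in replicates 1, 2 and 3. Counted from the start base as 0, the centre of the motif lay at -149 and the summits at -106, -97 and -113. Csrnp1, a nuclear transcription activator, has its stretch at chr9:119983024-119983273 on the minus strand. Its folds were 6.74, 16.7 and 11.1, with 2 matches in the stretch and summits at -81, -59 and -14. Rin1 encodes a Ras effector that is abundant in the forebrain. Its stretch, chr19:5050565-5050814 on the plus strand, holds 0 matches, although its folds were 6.45, 18.3 and 10.6. Il15ra encodes a cytokine receptor subunit, and its stretch is chr2:11705462-11705711 on the plus strand. Its folds were 6.32, 13.4 and 10.0, its motif centre lay at -27 and its summits at -43, -13 and -42.

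To compare the motif and its flanks in further promoters, 12 stretches of 29 bases are given, with the match in capitals and 11 bases on each side. They come from the next protein-coding genes in order of rank with a match in the window, and the match nearest the mean summit is shown. Genes where that match lay too near a window edge for 11 bases on each side were not taken. All printed matches lie before the start.
Myl12a: gacctagacagTGAGTCAccctagcttcc
Scyl3: cagcatagatgTGAGTCAggaatgcatca
Rcan1: catgcgggaccTGACTCAggaatttgctg
Wdr54: ccgagccttcgTGACTCAttttcgtgaca
Adgrg1: cttgccaggccTGAGTCAcgggcatccct
Otub2: gggtgaggaggTGAGTCAcccacatacac
Fgd4: cccaagaagccTGAGTCAcacacttctac
Lpin3: aaggaatgcagTGACTCAgctagtcactc
Ypel4: ggggggttggaTGACTCAcagtgttatga
Qars: cgctcgctctcTGACTCAtaaatggcgtt
Srxn1: caaattcacccTGAGTCAgcggccgggcg
Neu1: actctaccaacTGAGTCAtatgccatccc

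All of these carry TGACTCA or TGAGTCA, which are the same site read on opposite strands, and the bases beside it differ from gene to gene. Rcan1 encodes an inhibitor of calcineurin, the calcium-dependent phosphatase. Its motif lay at -107 and its summits at -57, -91 and -37, with folds of 4.20, 10.5 and 6.69. Srxn1 encodes sulfiredoxin, which repairs oxidised peroxiredoxins. Its printed motif lay at -42, with summits at -57, -15 and -6 and folds of 4.96, 14.8 and 5.25. Myl12a encodes a regulatory light chain of non-muscle myosin. Its motif lay at -134 and its summits at -158, -189 and -193. Over 57 core regions with a motif in the window, the median distance from the nearest motif to the summit was 43, 42 and 37 bp in the 3 lists. At 37 of the 57 (64.9%) it lay within 50 bp of the mean of the 3 summits. The motif and all 3 summits had to lie in the same window, which by itself keeps these distances short. Whether they are shorter than the window alone would give was not tested.

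Counted over windows, TGANTCA stood in 62 of the 81 windows with all 3 summits, 76.5% (95% Clopper-Pearson interval 65.8 to 85.2, counting error only). Of all 31365 distinct windows, on either strand, 7.85% held it. For regions in exactly 2 kainic acid lists with both summits in a window the share was 54.6% (46.3 to 62.7, n = 152). For regions in 1 list it was 17.0% (14.4 to 19.8, n = 771), and for summits of saline replicate 2 it was 4.35% (3.13 to 5.88, n = 919). These 3 kainic acid shares require more summits in the window the more lists there are. With at least 1 summit in the window as the criterion, the share was 56.9% for core regions (49.7 to 64.0, n = 195) and 41.3% for regions in exactly 2 lists (35.7 to 47.0, n = 303), beside the 17.0% for regions in 1. Most regions in 1 list are peaks of replicate 2, so number of lists and library are not separated here. Windows with only other summits, outside core regions, numbered 44, 1145 and 266 in replicates 1, 2 and 3. Their shares within each list are given below. The forms TGACTCA and TGAGTCA stood in 71.6% of core windows against 5.26% of all windows. TGAATCA or TGATTCA stood in 11.1% against 2.81%.

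For the other motifs searched, the interval of the core windows held the share of all windows. The cyclic AMP response element TGACGTCA, whose letters do not contain the AP-1 motif, was in 2.47% of core windows (0.300 to 8.64) and 1.83% of all windows. The E-box CACGTG was in 6.17% (2.03 to 13.8) and 7.14%. GCGTGGGCG, bound by Egr proteins, and 1 form of the serum response element were each in 0 of 81 (upper limit of the exact interval 4.45%). They stood in 0.606% and 0.0223% of all windows. A match is a description of letters and not a site.

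Base composition is given beside this, since it differs between promoters. The median GC share was 53.7% in core windows and 53.0% in all windows, against 57.7% for regions in 1 list and 68.7% for saline replicate 2. In windows of up to 50% GC, 74.2% of 31 core windows held the motif against 11.5% of all windows. In windows of over 60% GC it was 71.4% of 14 against 3.39%. A comparison within each list gave the same direction. Of windows with a core summit of kainic acid replicate 1, 2 or 3, 64.4%, 65.8% and 61.4% held TGANTCA, against 56.8%, 23.3% and 44.7% for the other peaks of the same list. The mean difference was 22.2 percentage points ± 18.1 (SD, n = 3 lists), and the two-sided exact sign-flip permutation test gave p = 0.25, the smallest that 3 lists allow. In replicate 1 the difference was 7.58 points with 44 other windows. The core peaks of the 3 lists lie at the same regions, so the lists are not independent for the core value.

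**Figure D1:**
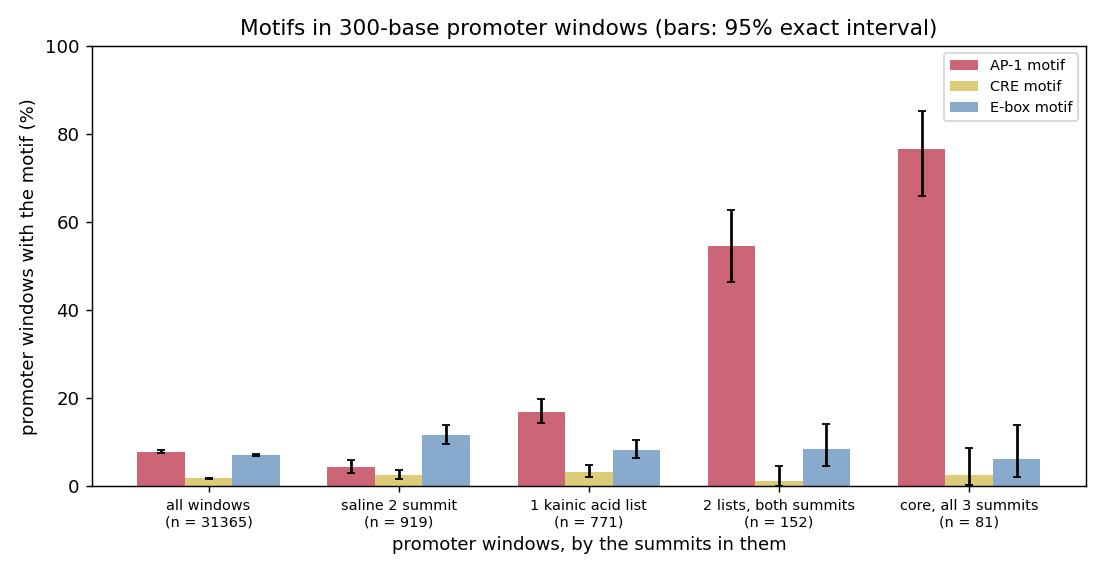
Share of promoter windows (y axis, percent) that hold the AP-1, CRE or E-box motif, for all windows and for windows grouped by the summits in them (x axis, with n). Error bars are 95% exact intervals. The AP-1 share rises from 7.85% of all windows to 76.5% of core windows with all 3 summits, while the CRE and E-box shares of core windows, 2.47% and 6.17%, have intervals that hold the shares of all windows.

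Core regions were wide. Their median width was 842 bp, with quartiles of 666 and 1065 bp and a range of 291 to 3837 bp, and together they covered 10.5 Mb. Regions in exactly 2 lists had a median of 576 bp and regions in 1 list 300 bp. Merging more peaks can only widen a region, so single peaks were compared as well. Core peaks had median widths of 394, 702 and 658 bp in replicates 1, 2 and 3, and the other autosomal peaks 280.5, 336 and 388 bp. In 10340 core regions (89.2%) each list contributed exactly 1 peak.

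The summits of the 3 libraries lay close together. The distance between the outermost of the 3 summits had a median of 123 bp and quartiles of 70 and 207 bp. It was at most 50 bp in 1741 regions (15.0%), at most 100 bp in 4633 (39.9%) and at most 200 bp in 8523 (73.5%). In the 1000 core regions of best mean rank the median was 68 bp, and 72.1% kept all 3 summits within 100 bp. In the 1000 of lowest rank the median was 168.5 bp and the share 26.0%. The regions with the highest folds were thus also those whose summits coincided best, and they were wider (median 1084 against 672 bp).

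Membership was set mainly by kainic acid replicate 1, which has the shortest list. Core regions took up 12088 of its autosomal peaks (81.2%), against 12199 (19.5%) in replicate 2 and 12062 (41.0%) in replicate 3. Of the 14512 regions in exactly 2 lists, 12735 lacked a peak of replicate 1, 1540 of replicate 3 and 237 of replicate 2. Without replicate 1, the rule applied to replicates 2 and 3 gave 24340 regions. The peak with the lowest −log10 q of a core region came from replicate 1 in 8678 regions, from replicate 3 in 2416 and from replicate 2 in 504.

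The boundary of the rule was soft. The weakest of the 3 peaks of a core region had a median −log10 q of 6.38, and in 141 regions (1.22%) it was under 2. The weaker peak of a region in exactly 2 lists had a median of 4.75. Just inside, the core region of lowest mean rank, chr5:4263804-4264436, had folds of 2.35, 3.14 and 2.18, with Mterf1b as the nearest gene at 66.4 kb. Another, chr6:36752653-36753095 inside Ptn, which encodes the growth factor pleiotrophin, had folds of 2.92, 2.36 and 2.94. Just outside, a region inside Glis3 at chr19:28642160-28643687 had folds of 12.2 in replicate 1 and 10.3 in replicate 3 but no peak in replicate 2. A region inside Ksr2, chr5:117726125-117726800, had 11.6 and 8.54 in replicates 2 and 3 and none in replicate 1. A missing call can therefore stand beside strong calls in the other libraries.

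Core peaks ranked high in the lists that hold many other peaks. The fold is the authors' ratio of the summit to its local background within 1 library, and neither it nor the pileup is scaled between libraries. Values of the 3 libraries are printed in order, and levels are compared only within a library. Median folds of core peaks were 4.56, 7.41 and 4.97 in replicates 1, 2 and 3, and those of other peaks 3.91, 4.12 and 3.65. Of the 1000 peaks of highest fold in each list, on any chromosome, 943, 914 and 918 lay in core regions. Of the 1000 lowest, 706, 22 and 185 did. The first 3 places of each list belonged to regions with a saline peak, which the rule leaves out. Median pileups over core summits were 23, 34 and 31 reads, with maxima of 121, 211 and 146, over median backgrounds of 4.02, 3.32 and 4.87 reads. Other peaks had median pileups of 18, 18 and 21 reads. Single folds carry the counting error of such read numbers.

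**Figure D2:**
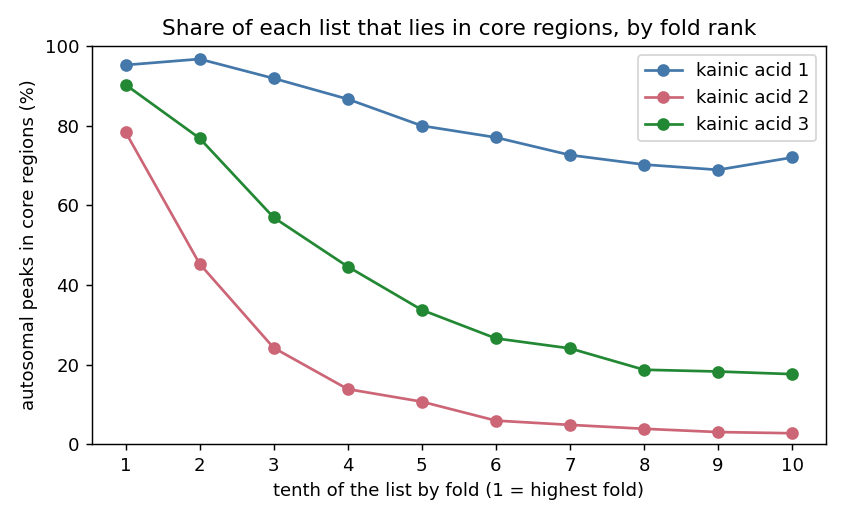
Share of the autosomal peaks of each kainic acid list that lie in core regions (y axis, percent), by decile of the list ordered by the authors' fold (x axis, 1 is the highest fold); each line is 1 library. In replicate 2 the share runs from 78.4% to 2.76%, in replicate 3 from 90.3% to 17.6%, and in replicate 1, whose peaks are mostly core, from 95.2% to 72.0%.

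The libraries ordered the core regions alike in part. Over the 11598 core regions, Spearman's rho of their folds was 0.54 between replicates 1 and 2, 0.57 between replicates 1 and 3, and 0.65 between replicates 2 and 3. The mean was 0.588 ± 0.0564 (SD over 3 pairs). For pileups the mean was 0.700 ± 0.0479. These are correlations across regions, which share the local chromatin and mappability, and carry no p-value.

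The region of best mean rank lay at chr14:14632198-14633975, 69.8 kb from Slc4a7, which encodes a sodium bicarbonate cotransporter. It had 96, 187 and 146 reads over the summit in replicates 1, 2 and 3, and folds of 21.6, 50.1 and 27.4. A region at chr8:125958837-125960049, 12.1 kb from the kinase gene Map3k21, had pileups of 104, 168 and 124 reads. In these unscaled reads replicate 2 was highest at both, and replicate 1 lowest.

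Among the 12 regions of best mean rank, 5 lay inside a protein-coding gene. They include regions of Glis3, Klhl2, Dlgap1 and Pkp2. Glis3 encodes a zinc finger transcription factor and was listed here as a marker of dentate granule cells. Its region, chr19:28436021-28437140, had 73, 140 and 86 reads and folds of 17.5, 37.6 and 17.1. Dlgap1 encodes a scaffold protein of the postsynaptic density. Its region, chr17:70753096-70754414, had 108, 181 and 106 reads and folds of 17.4, 30.4 and 16.0. Klhl2 encodes an actin-binding adaptor of a ubiquitin ligase, and its region chr8:64841096-64842669 had folds of 15.7, 31.5 and 22.5. Pkp2, which encodes the desmosomal protein plakophilin, held chr16:16260645-16261528 with folds of 15.8, 30.2 and 17.5. The other 7 lay outside genes, with Slc4a7, Map3k21, Cdh2, Lrp11, Rwdd3, Tm4sf1 and Caap1 as the nearest. Their distances ran from 8.08 kb for Lrp11 to 1190 kb for Cdh2, which encodes N-cadherin. A nearest gene is a position and not a target. Local background under these 12 summits stayed between 2.71 and 5.70 reads.

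**Figure D3:**
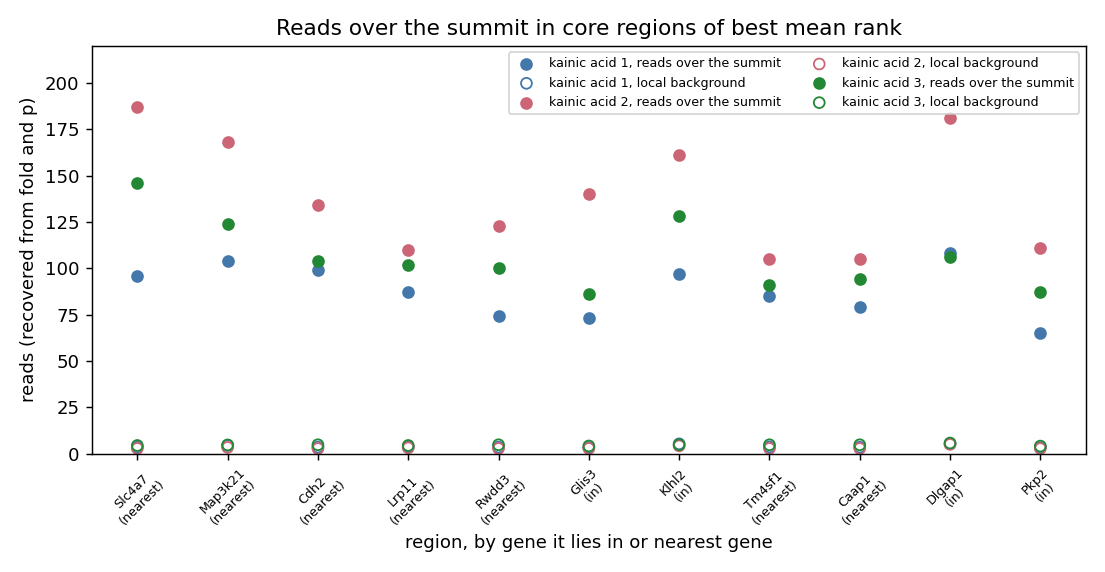
Reads over the summit (filled points) and local background (open points) in the 3 kainic acid libraries, in reads (y axis), for 11 of the 12 core regions of best mean rank (x axis, named by the gene that holds the region or lies nearest). Pileups run from 65 to 187 reads while every background lies under 6 reads, and replicate 2 has the most reads at each region, without scaling for depth.

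Most core regions lay more than 1 kb from any listed gene start. Inside the span of a protein-coding gene were 7201 of 11598 (62.1%, 61.2 to 63.0), against 65.0% of regions in exactly 2 lists and 66.0% of regions in 1 list. Within 1 kb of an end of such a gene lay 705 (6.08%, 5.65 to 6.53), against 7.88% and 10.9%. Where the promoter table gives a start site, which leaves out chromosome 18, 503 of 11149 core regions (4.51%) lay within 1 kb of one, against 6.46% and 9.24%. Within 250 bp it was 0.996%, 1.88% and 3.04%. Outside genes, the median distance to the nearest protein-coding gene was 38.7 kb for core regions, 32.9 kb for regions in 2 lists and 26.7 kb for regions in 1. Most regions in 1 or 2 lists have a peak of replicate 2. Outside core regions that list holds 50421 autosomal peaks, against 2802 in replicate 1 and 17363 in replicate 3. These comparisons thus largely set core regions against 1 long list, and shares within each list follow. The gene table has no exons, so exonic, intronic and untranslated positions inside a gene were not told apart.

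Position relative to genes was not used by the rule, and it was tested within each list. Of core summits, 62.4% ± 0.0514 (SD, n = 3 lists) lay inside a protein-coding gene, and of the other summits of the same lists 65.8% ± 0.639. The difference was -2.95, -3.24 and -4.11 percentage points in replicates 1, 2 and 3, a mean of -3.44 ± 0.604. The two-sided exact sign-flip permutation test gave p = 0.25, the smallest that 3 lists allow, so the design cannot reach 0.05. The difference kept its sign in every list and exceeded its SD over lists. Core peaks of the 3 lists are the same regions, which keeps the spread of the core value small.

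Gene ends gave a difference that depended on the saline lists. Within 1 kb of a gene end lay 6.08% ± 0.0689 of core summits and 9.18% ± 2.11 of other summits, a difference of -3.10 ± 2.04 points (-1.26, -5.29 and -2.76 in replicates 1, 2 and 3, exact sign-flip permutation p = 0.25). When saline peaks were ignored in the rule, the differences were 2.27, -4.53 and -1.69, with a mean of -1.32. When other peaks in regions with a saline peak were left out, they were 1.67, -4.35 and -1.58, with a mean of -1.42. Replicate 1 thus changed sign in both cases, and the other libraries did not. Without kainic acid replicate 1, 2 or 3 the mean was -4.19, -1.89 and -4.80.

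Along genes longer than 50 kb with a known strand (3678 genes), core regions were spread over the whole length. The first decile from the 5′ end held 12.6% of 4555 core regions and the last 7.11%. Those between held 9.15% to 10.7% each. For regions in 1 list, which come mostly from replicate 2, the first decile held 15.9%. By chromosome, core regions made up from 15.6% (chromosome 17) to 20.3% (chromosome 3) of the regions with a kainic acid peak.

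Core regions were spaced unevenly. The edge-to-edge gap to the nearest other core region had a median of 32.5 kb and quartiles of 8.97 and 89.1 kb, and the widest was 3811 kb. Another core region lay within 10 kb of 3093 regions (26.7%, 25.9 to 27.5), within 5 kb of 16.5% and within 100 kb of 77.6%. A region of a single kainic acid list lay within 10 kb of 54.8% of core regions, and one of exactly 2 lists within 10 kb of 29.8%. Joined wherever gaps were 10 kb or less, core regions formed 9863 groups. Of these, 8505 were single regions and 24 had 5 or more members, 139 regions in all.

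The largest groups held 9 core regions each. One spans 38.4 kb of Dlg2 (chr7:91411666-91450091) and the other 53.9 kb of Dlgap1 (chr17:70555257-70609176). Dlg2 encodes a membrane scaffold of the postsynaptic density, to which Dlgap proteins bind. Ntrk2, the receptor of brain-derived neurotrophic factor, held 8 in 32.9 kb (chr13:58854167-58887036). Sik3, a salt-inducible kinase, held 7 in 29.8 kb (chr9:46025939-46055715), and the splicing regulator Mbnl2 held 7 in 30.6 kb (chr14:120278133-120308741). Groups of 6 lay at Cnnm1, at the calcium pump gene Atp2b1, at Ildr2, and at Cntf with Lpxn and Zfp91. Groups of 5 included Furin, the proprotein convertase (15.2 kb, chr7:80397757-80413004), Vcl, which encodes vinculin (16.8 kb), and Rheb, the GTPase that activates mTOR (20.8 kb). Best ranks within these groups varied from 1.69, at Ildr2, to 32.1, at Rheb, as mean percentiles of the fold where 0 is the highest.

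Of 20665 autosomal protein-coding genes, 3569 (17.3%) had a core region in their span, and 5004 (24.2%) had one within 10 kb. At least 5 core regions lay in 306 genes and at least 10 in 76. Genes with a core region in the span had a median length of 76.2 kb, against 17.5 kb for all genes. Across genes, Spearman's rho of length and number of core regions was 0.45, and genes that overlap share regions. The share with a core region within 10 kb rose from 10.1% of genes up to 10 kb long to 88.9% of genes over 500 kb. Per 100 kb of gene, however, length classes held between 0.633 and 0.871 core regions, with no steady rise with length.

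The 15 genes with most core regions were all longer than 200 kb. Dlg2 held 54 over 1973 kb and Dlgap1 42 over 852 kb. Dlgap2, another postsynaptic scaffold, held 24 over 758 kb. Celf2, which encodes an RNA-binding splicing regulator, also held 24, and Csmd1, a large membrane protein with complement control domains, held 22. Rbfox1, a neuronal splicing factor, held 21, and the scaffold gene Magi2 held 19. The ankyrin genes Ank2 and Ank3, whose products anchor channels to the spectrin skeleton, held 19 and 18. Zbtb20, a transcriptional repressor of hippocampal development, held 18, and the microtubule-associated kinase gene Dclk1 held 17. Kcnma1, which encodes the calcium-activated BK potassium channel, held 17, and Ppp3ca, the catalytic subunit of calcineurin, held 16. Iqschfp held 20, of which Schip1, lying wholly inside it, accounts for 17.

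Within Dlg2, 30 core regions lay before the midpoint of the gene and 24 after, with a median gap of 17.5 kb. Their folds ran from 2.34 to 11.6 in replicate 1, 2.78 to 19.7 in replicate 2 and 2.38 to 13.1 in replicate 3. The best-ranked, chr7:91109213-91110196, had 48, 73 and 65 reads. Within Dlgap1, 15 lay before the midpoint and 27 after, with a median gap of 9.87 kb. Median folds there were 4.32, 6.98 and 4.57. In both genes a few strong regions stand among many near the median of all core regions.

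**Figure D4:**
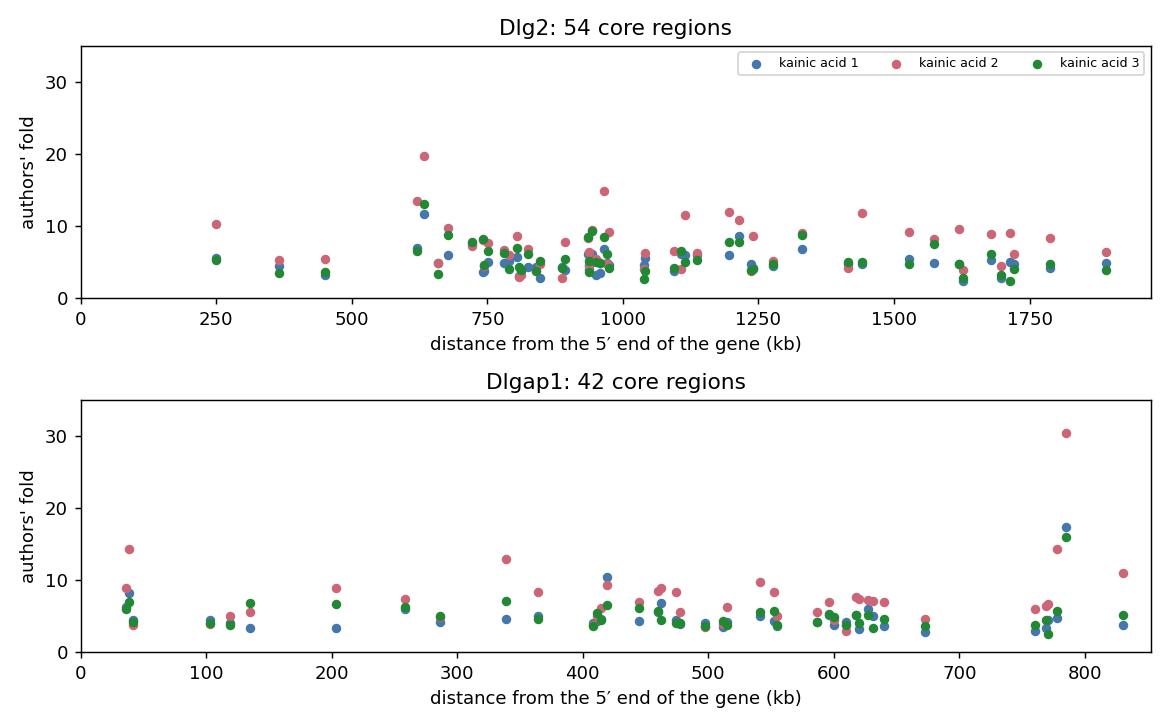
The authors' fold in the 3 kainic acid libraries (y axis, one colour per library) of each core region of Dlg2 (54) and Dlgap1 (42), by distance from the 5′ end of the gene in kb (x axis). In Dlg2 the highest folds are 11.6, 19.7 and 13.1, and in Dlgap1 17.4, 30.4 and 16.0 at a single region toward the 3′ end.

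Counted per length, other genes came first. Among genes with at least 5 core regions, Rheb had 15.2 per 100 kb (6 in 39.5 kb). Ndfip2, which encodes an adaptor of Nedd4 ubiquitin ligases, had 11.8. Ildr2 had 11.2, Cnnm1 10.3 and Ankrd33b 9.17. They were followed by Rnf217 (8.35), Mbnl2 (8.33), Atp2b1 (8.07), Frmd6 (7.81) and Gng7 (7.54), the last of which encodes a G protein gamma subunit. Rheb, Ildr2, Cnnm1, Mbnl2 and Atp2b1 are also among the groups above. Of these 10 genes, Ankrd33b held the region of best mean rank, with 74, 92 and 79 reads and folds of 14.9, 20.2 and 12.5. Frmd6 had 17, 34 and 29 reads at its best region.

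Gene lists were then read against the 24.2% of all protein-coding genes with a core region within 10 kb. Of 16 genes for AP-1 subunits and their relatives, 8 had one. The best-ranked was inside Batf3, a leucine zipper partner of Jun, at chr1:191102685-191103605, with 25, 57 and 50 reads and folds of 5.78, 13.4 and 8.88. Jund had a region with folds of 5.03, 8.74 and 7.16. Fosb, a close relative of Fos, had 3 regions. That of best rank, chr7:19302432-19303900, had 22, 25 and 32 reads and folds of 5.11, 7.02 and 6.55. Fos itself, named here because it is the protein that was precipitated, had 1, at chr12:85486515-85488302 and 9.24 kb from the gene. It had 27, 43 and 36 reads and folds of 4.48, 7.36 and 5.37. Its mean percentile was 26.8, where core regions ran from 0.0138 to 96.9. Jun, Junb, Atf3, Fosl1, Batf, Maf and Mafk were among those with none.

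Of 19 other early response transcription factors, 12 had a core region. Klf2, a Krüppel-like zinc finger factor, had the best-ranked, at chr8:72310484-72311483, with 34, 78 and 56 reads and folds of 8.30, 21.3 and 11.2. Klf4 had 2 regions, the better with folds of 5.92, 10.8 and 8.82. Per2, a component of the circadian clock, had 1 with folds of 6.35, 10.7 and 6.40. Nfil3, a basic leucine zipper repressor, had 4 within its span of 15.7 kb. Their folds ran from 3.84 to 6.08 in replicate 1, 8.66 to 12.6 in replicate 2 and 5.89 to 8.04 in replicate 3. Their pileups in order of position were 15, 31, 37 and 33 reads in replicate 1 and 34, 68, 56 and 58 in replicate 2, so the first had the fewest reads in both. Bhlhe40, Crem, Egr2, Egr3, Ier2, Nr4a1 and Per1 had none.

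Of 25 effector genes that neurons switch on with activity, 16 had a core region. Nptx2, a secreted pentraxin that clusters AMPA receptors, had the best-ranked, with 37, 50 and 49 reads and folds of 8.22, 11.8 and 8.16. Homer1, a postsynaptic scaffold with a short activity-induced form, had 8 regions, 7 of them in the gene. Its best, chr13:93369445-93370923, had 30, 40 and 49 reads and folds of 7.25, 10.8 and 9.71. The other 7 had mean percentiles from 19.9 to 51.4. Sorcs3, a sorting receptor, had 3 regions, the best with folds of 6.22, 14.8 and 8.01. Bdnf, the neurotrophin gene, had 2 that lie next to each other. One, chr2:109710706-109712321, had 38, 39 and 46 reads and folds of 7.26, 7.77 and 7.02, and the other, chr2:109708546-109709877, had 18, 26 and 23 reads. Arc, a synaptic capsid-like protein, was added after its values were seen. Its 3 regions had mean percentiles of 56.3, 15.9 and 36.8. Dusp5, Dusp6, Npy, Nrn1, Penk, Plk2, Ptgs2, Rgs4 and Tac1 had none.

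Together, 36 of these 60 activity-linked genes (60.0%) had a core region within 10 kb, although their median length was 8.13 kb. Of all genes up to 10 kb long, 10.1% had one. The 60 genes also include longer ones, up to Sorcs3 at 599 kb, so that share is not a like comparison. Of all genes of 10 to 50 kb, 21.1% had a core region within 10 kb, and of those of 50 to 200 kb, 45.3%. These lists were drawn up with earlier results of the data known, so the count is a description. Of the 24 without one, 17 had a region in exactly 2 kainic acid lists within 10 kb, 4 had only regions in 1 list, and 3, among them Ier2 and Maf, had neither. Junb, Mafk and Per1, among the 17, also had regions in all 3 kainic acid lists that the rule leaves out for a saline peak. That of Junb, chr8:84985101-84986548, had folds of 9.20, 21.3 and 12.1 and a mean percentile of 1.20. With saline ignored, the count was thus 39 of 60 (65.0%), and 25.0% of all genes had a region.

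Receptor, channel and adhesion genes are mostly long, and long genes had high shares at large. Of 23 glutamate receptor genes with a median length of 378 kb, 18 had a core region, as did 10 of 11 GABA-A receptor subunits (137 kb). It was 16 of 26 potassium channel subunits (209 kb) and 13 of 15 synaptic adhesion genes (903 kb). Of all genes of 50 to 200 kb, 45.3% had one, of those of 200 to 500 kb 74.9%, and of those over 500 kb 88.9%. Gria1, an AMPA receptor subunit, had 13 regions, the best with 38, 40 and 47 reads and folds of 9.36, 11.1 and 9.53. Grik4, a subunit of the kainate receptors, had 6, the best with folds of 7.78, 13.8 and 6.79. Gabrg3 had 2, the better with folds of 8.19, 15.9 and 11.1, and Gabra5 had 4. Kcnma1 had 18 within 10 kb, the best with 46, 84 and 52 reads and folds of 11.3, 22.7 and 10.5, and Kcnd3 and Kcnj6 had 9 each. Nlgn1, a neuroligin, had 9, the best with folds of 8.96, 15.8 and 9.71. Cntn5, a contactin, had 4.

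Markers of hippocampal cell types were counted in the same way, against the same 24.2% of all genes. Of 10 dentate granule cell markers, 6 had a core region, led by Glis3 (9 regions), Stxbp6 (5) and Dock10 (9). The best of Stxbp6 had 50, 69 and 53 reads and that of Dock10 50, 68 and 50. These are long genes of 421, 223 and 258 kb, and 74.9% of all genes of 200 to 500 kb had a core region. Prox1 had 1, at a mean percentile of 55.2, and C1ql2, Calb1, Dsp and Plk5 had none. Of 10 markers of CA pyramidal cells, 6 had one, with Grik4 ranked first. Grik4 is 427 kb long and is also counted among the glutamate receptors above. Iyd, Mpped1, Pou3f1 and Wfs1 had none. With −log10 q of at least 5, CA markers gave 6 of 10 and dentate markers 5 of 10, beside 18.6% of all genes. At a minimum of 10, CA markers gave 1 of 10 and dentate markers 4 of 10, beside 9.25%. Without kainic acid replicate 1 they gave 8 of 10 and 7 of 10, beside 39.5%. The order of the 2 lists thus depended on the setting. Astrocyte markers gave 5 of 10, led by Slc1a2, the astrocytic glutamate transporter, with 37, 51 and 39 reads. Aldoc, Gfap, Gja1, Gjb6 and S100b had none. Of 12 interneuron markers, 3 had one, led by Adarb2, a gene of 566 kb, with 36, 82 and 56 reads, and Gad1, the enzyme that makes GABA. Dlx1, Dlx6os1, Gad2, Lhx6, Npy, Pvalb, Slc32a1, Sst and Vip had none. Oligodendrocyte markers gave 2 of 11, led by Mbp, microglia 2 of 11, and endothelial cells 2 of 10. Shares of the interneuron, oligodendrocyte, microglia and endothelial lists, 18.2% to 25.0%, were thus near that of all genes. The low microglia count depended on the reach. Within 50 kb it was 8 of 11, above the 43.3% of all genes. Dentate markers then gave 6 of 10 and CA markers 7 of 10. However, 1 core region, chr4:136907603-136908719, is within 50 kb of C1qa, C1qb and C1qc, which lie side by side. Their hits are thus not separate. Within 10 kb the microglia count was 0 of 11 with −log10 q of at least 5 (all genes 18.6%) or 10 (9.25%). Liver genes, a list from another tissue, gave 2 of 20, Apob and Ttr, each with 1 region, and 8 of 20 within 50 kb. Differences between lists were not tested. Counts from lists of 10 to 26 genes are coarse, and the lists differ in gene length, from medians of 6.67 kb for microglia to 56.3 kb for CA pyramidal cells among the cell type markers. The lists give positions of regions beside genes, and the cell type in which Fos was bound was not measured.

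**Figure D5:**
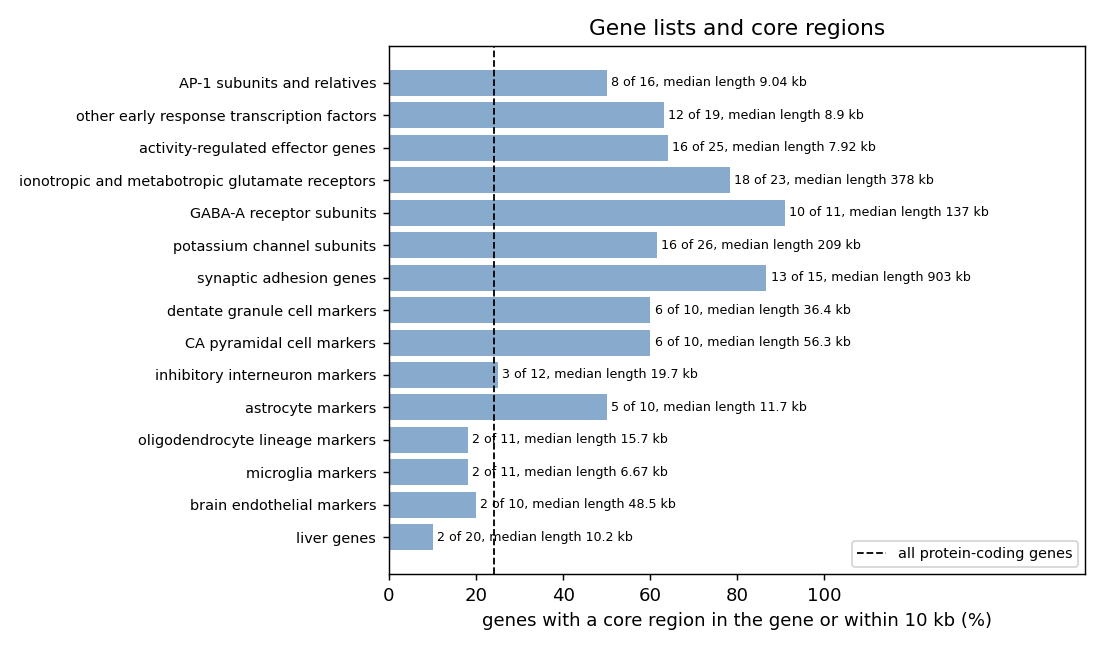
Share of the genes of each list with a core region in the gene or within 10 kb (x axis, percent), with the count and the median gene length printed beside each bar; the dashed line is the 24.2% of all protein-coding genes. The bars run from 10.0% for liver genes to 90.9% for GABA-A receptor subunits, and the lists with the longest genes are among the highest.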

How the data were processed

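The data were 6 deposited lists of Fos peaks, 1 per library (3 saline, 3 kainic acid). Per the submitters' processing notes, tools named are Trim Galore 0.6.4, Bowtie2 2.3.4.3, MACS2 and deepTools 3.5.0, with the mouse build mm10. Their order and settings, the MACS2 version, the calling cutoff and the control used are not given in the sources used here. Per the file contents, peak names carry a mapping quality of 30. The authors deposited for each peak a fold (a linear ratio of the summit to local background), a −log10 p and a −log10 q. The deposited score is 10 times the −log10 q, rounded down, and was not used.

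Overlapping peaks (by 1 bp or more) of the 6 lists were joined into regions. Pileup and background λ were solved from fold = (pileup + 1)/(λ + 1) and from p as a Poisson tail. All 111142 of 111142 peaks were solved within a relative tolerance of 0.0001. On simulated data 19436 of 19436 pileups were returned, and 6.16% of randomly paired values came as close. Ranks are percentiles of the fold within a list, and a region takes its peak of highest fold. Gene spans, promoter windows and sequences came from RefSeq tables of GRCm38.p6. Of 20665 autosomal protein-coding genes, 16457 (79.6%) have a promoter entry. Chromosome 18 has none, so start-site and motif values leave it out.

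The members and lists were chosen with earlier results of these data known. Genes were named by rule: the 15 with most core regions, the 10 densest with at least 5, the 12 best-ranked regions, the 12 densest groups, and the 2 to 4 best-ranked of each list. A few named items are not reported here. Fos and Arc, the genes counted as without a core region, and the boundary examples were added after their values were seen. Promoter sequences were restricted to protein-coding genes with all 3 summits in the window, and for the short stretches to those with a match, after values were seen. The planned share of AP-1 motifs around all summits needs a genome sequence and was not run; the search of promoter windows was added in its place after the data were seen. Paired differences used a two-sided exact sign-flip permutation test over the 3 lists. Intervals are 95% Clopper-Pearson. Python 3.11.15, NumPy 2.4.6, pandas 2.3.3, SciPy 1.17.1 and matplotlib 3.10.9 were used.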

Additional observations from a re-analysis of the deposited data

How the results depend on the processing

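Of 253 alternative values, 88 concern the main results and 165 single gene lists. Of the former 71 stayed within the limits set for them and 17 moved, and of the latter 145 and 20. None reversed its sign as a mean over lists. Every gene-end and gene-body difference was counted as within its limits. This includes the gene-end mean of -1.32 points with the saline lists not used, against -3.10 as reported. The p of their exact sign-flip test cannot fall under 0.25 with 3 lists, so it could not show a move. Leaving out saline replicate 1 or 3 gave 11600 or 11598 core regions, against 11598 as reported, so little could move there. The number of values that stayed is thus no measure of stability. No paired analysis was possible because the saline libraries define which regions are counted and hold too few peaks to give values at them, so no test between saline and kainic acid was made.

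Raising the minimum −log10 q to 5 or 10 left 7630 or 3009 core regions, and taking the same number of peaks from each kainic acid list left 7552. With one library left out there were 11598 to 24340, the highest without kainic acid replicate 1. The share with another core region within 10 kb was 19.7% and 9.11% at those 2 thresholds, 16.5% and 39.4% at reaches of 5 and 20 kb, and 26.7% to 44.2% with one library left out. The share of the 60 activity-linked genes was 30.0% with −log10 q of at least 10 (all genes 9.25%), 40.0% within gene spans alone (17.3%) and 78.3% within 50 kb (43.3%). With one library left out it ran from 60.0% to 86.7%, the highest without kainic acid replicate 1, where 39.5% of all genes had a region. The AP-1 share of promoter windows was 56.9% with at least 1 summit. Without kainic acid replicate 1, 2 or 3 it was 62.8%, 68.0% and 70.2%, where only the 2 remaining summits had to lie in the window. Without a saline library it was 76.5% to 77.6%. Causes of these shifts were not tested, beyond fewer or more regions being counted. Across all settings the median width ran from 696 to 1004 bp, the mean rho from 0.549 to 0.618, the gene-body difference from -4.27 to -2.81 points and the gene-end difference from -4.80 to -1.32 points. The sign-flip test cannot pass 0.05 with 3 lists, and its p-values are no measure of stability. Core pileups at the 5th percentile were 15, 16 and 18 reads in replicates 1, 2 and 3, and whether depth limits these calls was not tested.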
